A study of Homo sapiens with 45 samples.

Results

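The 10 protein-coding genes described here, of 64485 rows in the count table, were chosen because 1 breast cancer cell line had almost no reads of them while the other lines expressed them. They are PPP2R5E and WDR89 on chromosome 14, ZMYM2 and ZMYM5 on chromosome 13, ANKS3, ROGDI and UBN1 on chromosome 16, RIC8A on chromosome 11, VAMP8 on chromosome 2 and ANP32A on chromosome 15. All 10 Ensembl IDs were found, and they fall into 6 loci and 5 lines: HCC1187, MDA-MB-157, MDA-MB-468, HCC1806 and BT-549. Because the missing reads chose the genes, their level in that line is given as a description, with no test. The question the choice raises is whether neighbouring genes on the chromosome are missing with them, and the neighbours were chosen by position only.

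The study sequenced total RNA, after removal of ribosomal RNA, from 15 established breast cancer lines with no engineered change (genotype given as wild-type), in 3 libraries each. RPMI 1640 held HCC1187, HCC1806 and BT-549, with HCC70, HCC38, HCC1937, HCC1395 and HCC1143. L-15 held MDA-MB-157 and MDA-MB-468, with MDA-MB-453, MDA-MB-231 and MDA-MB-436, while BT-20 grew in EMEM and Hs578T in DMEM. Every medium held fetal bovine serum, penicillin and streptomycin. L-glutamine was added to all but L-15, insulin was given to BT-20, BT-549 and MDA-MB-436, and glutathione to MDA-MB-436 alone. Each line descends from 1 tumour, so its 3 libraries are not 3 tumours.

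Cancer genomes can lose both copies of a short chromosomal segment, and every gene inside it then gives no RNA. A gene can also be shut off alone, often with methylation of the CG pairs in its promoter, while the genes beside it are still read. The 10 genes serve unrelated functions. PPP2R5E encodes a B56 regulatory subunit that directs the phosphatase PP2A to its substrates, and WDR89 a WD-repeat protein. ZMYM2 and ZMYM5 are MYM-type zinc finger genes, and ZMYM2 binds the LSD1-CoREST corepressor. UBN1 is a subunit of the HIRA chaperone that deposits histone H3.3, ROGDI belongs with the rabconnectin proteins that assemble the vacuolar proton pump, and ANKS3 is an ankyrin-repeat partner of ANKS6 at the cilium. RIC8A folds and activates G protein alpha subunits, VAMP8 is a vesicle SNARE of late endosomes, autophagosomes and secretory granules, and ANP32A is an acidic histone-binding protein.

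Sequence before the start is shown for 4 of the genes. These are the pair on chromosome 14 whose reads are missing together, and ANP32A and VAMP8. No neighbour with a median of at least 0.5 CPM is missing with the last 2, other than one that overlaps. The sequences come from the RefSeq promoter table (GRCh38.p14), which holds 9 of the 10 genes and not RIC8A. Each is the part of the 250 bases before the start that lies outside annotated untranslated regions, 5′ to 3′ on the gene's strand, with CG pairs in capitals. A CG reads the same on both strands.
PPP2R5E, chr14:63543378-63543627, minus strand: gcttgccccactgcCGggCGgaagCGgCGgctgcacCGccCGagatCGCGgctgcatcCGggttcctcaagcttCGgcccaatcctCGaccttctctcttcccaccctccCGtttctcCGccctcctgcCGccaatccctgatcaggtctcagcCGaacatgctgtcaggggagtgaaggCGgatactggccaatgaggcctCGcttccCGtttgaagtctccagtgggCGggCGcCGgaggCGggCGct
WDR89, chr14:63641872-63642121, minus strand: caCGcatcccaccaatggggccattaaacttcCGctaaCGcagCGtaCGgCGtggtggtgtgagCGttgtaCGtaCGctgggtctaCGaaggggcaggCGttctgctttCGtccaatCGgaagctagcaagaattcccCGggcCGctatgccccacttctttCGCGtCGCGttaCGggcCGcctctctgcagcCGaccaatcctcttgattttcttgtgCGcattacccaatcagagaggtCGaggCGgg
ANP32A, chr15:68820896-68821145, minus strand: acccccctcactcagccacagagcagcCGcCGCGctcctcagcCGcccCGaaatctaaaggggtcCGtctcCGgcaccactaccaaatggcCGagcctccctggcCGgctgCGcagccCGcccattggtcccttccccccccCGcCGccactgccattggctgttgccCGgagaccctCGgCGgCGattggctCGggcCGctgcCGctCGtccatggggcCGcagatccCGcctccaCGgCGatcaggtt
VAMP8, chr2:85577336-85577490, plus strand: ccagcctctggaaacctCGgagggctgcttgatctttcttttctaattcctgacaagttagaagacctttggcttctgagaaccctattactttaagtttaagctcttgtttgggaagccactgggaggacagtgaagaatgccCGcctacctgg
Over the full 250 bases, PPP2R5E has 23 CG pairs, WDR89 25, ANP32A 25 and VAMP8 6. For PPP2R5E this is the promoter with the most CG pairs. A second PPP2R5E promoter, chr14:63508239-63508488, has 3 and is not shown, and 77.1% of promoters have 3 or more. The median over 35116 promoters of that length is 11. A count of 25 or more was found in 21.6% of them, 23 or more in 25.8% and 6 or more in 61.9%. The RefSeq start of VAMP8 lies inside the gene body that GENCODE 29 draws, whose first base is 15 bases from the start of GGCX. Taking the promoter with the most CG pairs where a gene has several, the 8 other matched genes had 23 to 38. No methylation was measured.

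The 45 libraries held 2312138 to 14653677 counts each, with a median of 6263573, and levels are given as CPM, counts scaled to a library's total, or to the summed total of the 3 libraries of a line. The labels call every line epithelial. Of 8 epithelial markers, all 8 reached 5 CPM in HCC1187, HCC1806 and MDA-MB-468. In MDA-MB-157 3 did and in BT-549 0, where the 8 summed to 11.4 CPM. All 5 mesenchymal markers reached 5 CPM in BT-549 and MDA-MB-157, 3 did in HCC1187, 2 in MDA-MB-468 and 0 in HCC1806. Blood and endothelial markers passed 5 CPM for at most 2 genes of a list in any line. The highest were CDH5 at 113 CPM in BT-20 and, of the blood markers, CD14 at 31.5 CPM in MDA-MB-157. The labels do not say that replicates were separate cultures, so p-values measure the spread between these libraries, which may be technical. In bulk RNA, fewer cells with a transcript and less transcript per cell cannot be told apart.

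**Figure D1:**
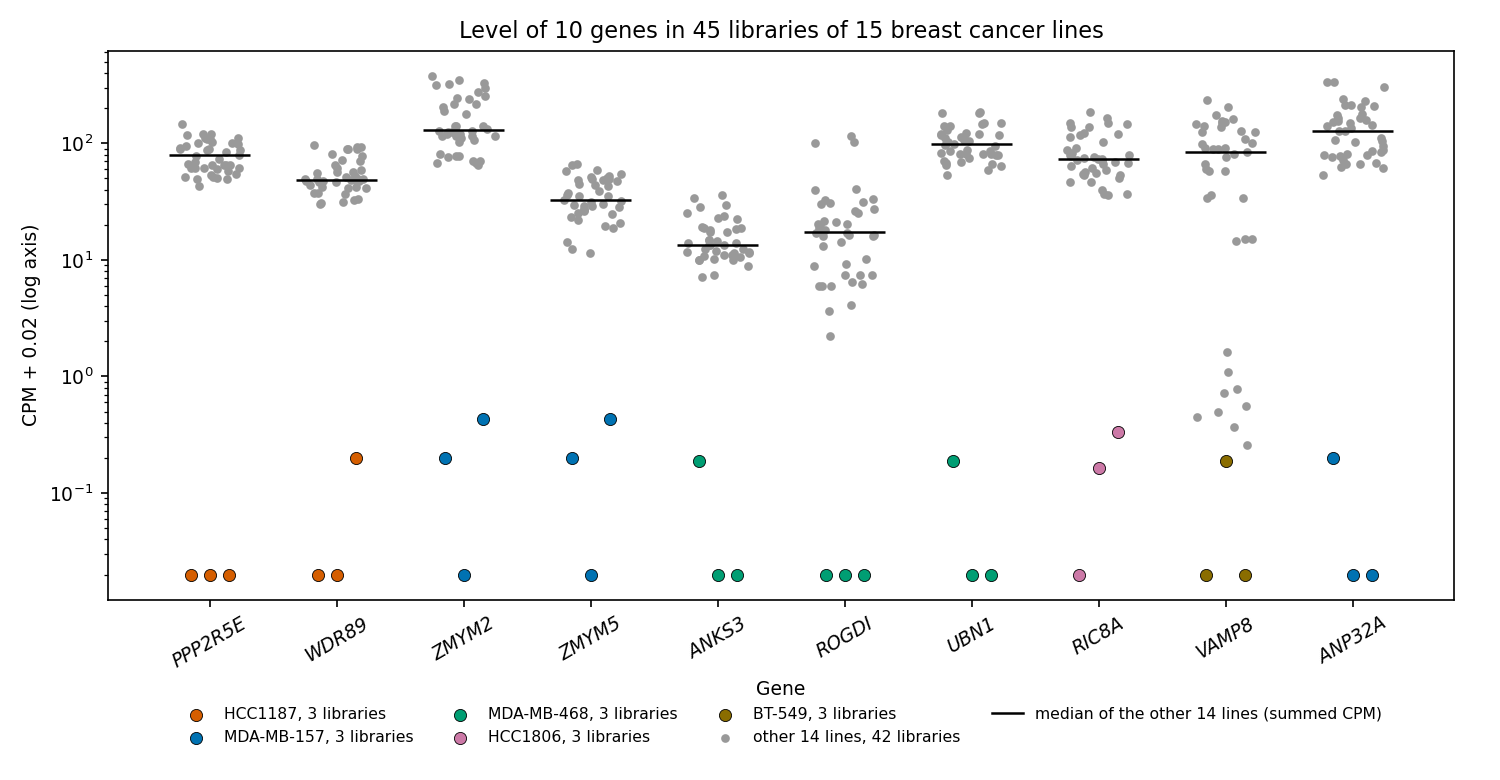
CPM plus 0.02 on a log axis for each of the 10 genes. Coloured points are the 3 libraries of the line in which the gene is lowest, grey points the 42 libraries of the other 14 lines, and the black bar the median of those lines. All genes but VAMP8 have an empty gap between the coloured and the grey points. VAMP8 has 9 grey points between them, from Hs578T, MDA-MB-436 and HCC1395.

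Across the 10 genes the summed level in the lowest line was 0 to 0.204 CPM. Being below every other line, which the choice of the genes fixed, held for 7.18% of genes with a median of at least 0.5 CPM in HCC1187, 5.57% in MDA-MB-157, 3.67% in MDA-MB-468, 7.72% in HCC1806 and 5.32% in BT-549.

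In HCC1187 the missing genes lie on chromosome 14. PPP2R5E (ENSG00000154001.13, GRCh38 chr14:63371357-63543374, minus strand) had 0 counts in all 3 HCC1187 libraries. The other 42 libraries ran from 43.1 CPM through a median of 74.8 to 147 CPM, and none had fewer than 151 counts. The groups do not overlap. Against a floor of 3 counts over the 3 libraries, PPP2R5E was at least 452-fold lower in HCC1187 than the median line at 78.5 CPM. WDR89 (ENSG00000140006.11, chr14:63597039-63641861, minus strand) had 0, 0 and 1 counts in HCC1187, against 30.1 to 96.8 CPM elsewhere. Its ratio to the median line, 828-fold lower, has a 95% Poisson interval of 149 to 32698. Such intervals cover counting error only.

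The missing reads reached past both genes. The run was followed to the first protein-coding gene on each side at or above 10% of its median. Only genes with a median of at least 0.5 CPM in the other lines were used. KCNH5 and ESR2 were these ends, so protein-coding genes between them are low by that rule. Among all genes at that level, 2.35% were under 10% of their median in HCC1187. Of 8 genes at that level between the ends, 7 were, PPP2R5E and WDR89 included. They summed to 129 counts, where the medians would give 4915, and 128 of the 129 were from SYNE2, which encodes the nuclear envelope protein nesprin-2. SYNE2 had 49, 36 and 43 counts, 4.76% of its median of 156 CPM, and its log2 fold change was -4.21 ± 0.19 (SE, adjusted p = 2.33e-24). It was below every other line, the lowest of which had 40.6 CPM. RHOJ, on the other side, had 0 counts against a median of 0.557 CPM. It was at least 3.21-fold lower with an adjusted p of 0.0119, but with replicate 1 of every line left out its adjusted p was 1.0. The 3 noncoding genes AL136038.3, AL136038.2 and AL136038.5 also had 0 counts, from medians of 0.567 to 0.668 CPM. AL136038.3 starts 195 bases from the start of PPP2R5E and AL136038.5 282 bases from that of WDR89, both in the opposite direction.

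The single gene inside that kept its reads was HSPE1P2, a pseudogene of the chaperonin gene HSPE1 that lies within WDR89. It had 8, 11 and 3 counts, 83.6% of its median. Such copies can take reads from their parent gene, and how the counting treated reads with several matches is not given in the sources used here. KCNH5, the next expressed gene on the left, had 51 counts in HCC1187, 2.95 CPM where the median was 4.10 (log2 fold change -0.28, adjusted p = 0.475). ESR2, the estrogen receptor beta gene whose body overlaps the end of SYNE2, stood at 172% (0.61, adjusted p = 0.287). From RHOJ to SYNE2 the low genes span 1022 kb.

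Of 10 tested protein-coding neighbours within 1 Mb, 2 (RHOJ and SYNE2) were called lower, that is with an edgeR adjusted p under 0.05 and a log2 fold change of -1 or less, and 12.5% of all 20587 genes were. None was called higher. The neighbours had a median log2 fold change of -0.32, and all genes had 0.03. Without replicate 1 or without replicate 2 the count was 1. It was also 1 over the 11 lines that share HCC1187's sequencing runs. MTHFD1, 746 kb to the right, stood at 118% of its median. Of the flanks 1 to 5 Mb away, the left had a median of -0.76 over 25 tested genes, 8 of them called lower, and the right one of 0.03 over 23.

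MDA-MB-157 lacked reads of a pair of relatives on chromosome 13. ZMYM2 (ENSG00000121741.16, chr13:19958670-20091829, plus strand) had 1, 0 and 2 counts in MDA-MB-157. The 42 other libraries held 65.3 to 379 CPM with a median of 128. ZMYM5 (ENSG00000132950.18, chr13:19823482-19863636, minus strand) had 1, 0 and 2 counts as well, against 11.4 to 66.8 CPM and a median of 33.9. For neither gene do the groups overlap. The ratios to the median line were 633-fold lower (interval 217 to 3070) for ZMYM2 and 158-fold lower (54.1 to 767) for ZMYM5. The 2 are related in sequence, so reads shared between them could be split by the counting.

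PSPC1 was missing with them. This gene of a paraspeckle RNA-binding protein lies 40.5 kb to the left and had 8, 3 and 2 counts in MDA-MB-157, 0.769% of its median of 115 CPM. Its log2 fold change was -7.21 ± 0.22 (SE, adjusted p = 2.95e-30). Among all genes in this line, 1.48% were under 10% of their medians. All 3 expressed genes from PSPC1 to ZMYM2, a span of 417 kb, were. Of these, ZMYM2 and ZMYM5 were chosen for it, and the same rule set the ends. The 3 genes summed to 19 counts where 4065 would be had at the medians. The pseudogene PSPC1P1, 596 kb to the left of ZMYM5, also had 0 counts, from a median of 0.733 CPM. As a copy of PSPC1 it can take reads from that gene, so its count cannot be read apart from that of PSPC1. Between PSPC1P1 and PSPC1 lies MPHOSPH8, which encodes the HUSH complex reader MPP8, with 563 counts or 78.0% (log2 fold change -0.65, adjusted p = 3.99e-06, short of the fold needed for a call). TPTE2, further left, had 10 counts or 78.5% (-0.15, adjusted p = 0.896).

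On the right the first gene was higher. GJA3, a gap junction gene of the lens, had 66 counts or 243% of its median (log2 fold change 1.28, adjusted p = 0.000149). Beyond it, GJB2 (31.1%, log2 fold change -1.83), IFT88 (51.7%, -1.30), EEF1AKMT1 (51.8%, -1.16) and XPO4 (58.9%, -1.08) were called lower without being absent, and so was GJB6, with 2 counts. In all, 6 of 12 tested neighbours were called lower and 2 higher, and 12.4% and 20.0% of all genes were. The median log2 fold change of the neighbours was -0.87, and that of all genes 0.07. Further right the shift went on: 10 of 14 tested protein-coding genes 1 to 5 Mb away were called lower with a median of -1.67, and 13 of 25 at 5 to 10 Mb with a median of -1.10. GJB6 lost its call without replicate 1 (adjusted p = 1.0), as did XPO4, whose log2 fold change then lay just short of the limit, and EEF1AKMT1 lost its call without replicate 2 (-0.88).

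The stretch with the most low genes, on chromosome 16 in MDA-MB-468, held 3 of the 10 genes. ANKS3 (ENSG00000168096.14, chr16:4696510-4734378, minus strand) had 1, 0 and 0 counts in MDA-MB-468, against 7.08 to 36.1 CPM in the 42 other libraries. ROGDI (ENSG00000067836.12, chr16:4796968-4802950, minus strand) had 0 counts in all 3, against 2.21 to 114 CPM. UBN1 (ENSG00000118900.14, chr16:4846665-4882360, plus strand) had 1, 0 and 0 counts, against 53.0 to 186 CPM. No library of MDA-MB-468 reached the lowest library of another line for any of them. UBN1 was 1878-fold below the median line of 98.1 CPM (interval 337 to 74184) and ANKS3 256-fold below 13.4 CPM (46.0 to 10126). ROGDI was at least 111-fold below 17.4 CPM.

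The ends of this stretch were set by the rule used for HCC1187, so its protein-coding genes are low by that rule. Only its reach is a result. Among all genes in MDA-MB-468, 1.58% were under 10% of their medians. All 11 genes with a median of at least 0.5 CPM from UBALD1 to PPL, over 352 kb, were, the 3 chosen genes included. Together they had 13 counts where the medians would give 6085. GLYR1, which encodes a nucleosome-binding elongation cofactor and overlaps the start of UBN1 in the opposite direction, had 0, 2 and 3 counts from a median of 101 CPM (log2 fold change -8.43 ± 0.22, adjusted p = 2.62e-33). PPL, the gene of the desmosomal protein periplakin, had 1, 1 and 4 counts from a median of 61.9 CPM (-6.75 ± 0.44, adjusted p = 6.57e-18). PPL lies near 0 in Hs578T too, at 0.367 CPM, and its adjusted p was 1.0 without replicate 2.

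The 6 remaining genes had 0 counts, so only bounds can be given. MGRN1, a ubiquitin ligase gene, was at least 55.8-fold lower, the zinc finger gene ZNF500 at least 47.0-fold and NUDT16L1 at least 45.5-fold. UBALD1 was at least 10.8-fold lower, C16orf71 at least 3.79-fold and the noncoding AC020663.3 at least 3.65-fold. C16orf71 lost its call without replicate 1 (adjusted p = 1.0). SMIM22, beside ROGDI, also had 0 counts, but its median was only 0.160 CPM and it was not called.

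Reads returned on both sides. TFAP4, a transcription factor gene 423 kb to the left of ANKS3 and the nearest expressed gene outside, had 161 counts or 68.4% of its median (log2 fold change -0.64, adjusted p = 0.000912). No gene with a median of at least 0.5 CPM lies between TFAP4 and UBALD1, so the left end of the gap is not known. TFAP4 and NAGPA, the ends set by the rule, are 752 kb apart. On the right, SEC14L5, whose start region overlaps that of PPL on the opposite strand, was higher: it had 76, 72 and 63 counts, 11.0 CPM where the median was 0.499, and its log2 fold change was 4.18 ± 0.29 (SE, adjusted p = 3.67e-17). The highest other line had 8.05 CPM. NAGPA (43.1% of its median, log2 fold change -1.10) and the mannosyltransferase gene ALG1 (33.0%, -1.73) were lower, and NAGPA lost its call without replicate 3 (-0.95). Of 30 protein-coding neighbours within 1 Mb, 13 were not tested. Of the 17 tested neighbours, 9 were called lower and 1 higher, and 9.19% and 14.7% of all genes were. Their median log2 fold change was -1.73, or -1.10 with genes at 0 counts set at their bounds, and that of all genes 0.03. The flanks 1 to 5 Mb away had medians of -0.51 over 120 genes on the left and -0.42 over 8 on the right.

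HCC1806 lacked reads at the tip of chromosome 11. RIC8A (ENSG00000177963.14, chr11:207511-215113, plus strand) had 0, 1 and 3 counts in HCC1806. The 42 other libraries ran from 35.6 to 184 CPM with a median of 73.3, and the groups do not overlap. It was 435-fold below the median line (interval 170 to 1595). BET1L, a Golgi SNARE gene that starts 83 bases away in the opposite direction, was low with it: 4, 1 and 1 counts, 2.41% of a median of 10.4 CPM (log2 fold change -5.18 ± 0.33, adjusted p = 1.80e-18). The noncoding AC069287.2 inside BET1L had 0 counts from a median of 1.28 CPM. Among all genes in HCC1806, 2.05% were under 10% of their medians. By the same rule these 3, RIC8A chosen for it, were the whole run, which spans 47.3 kb. No gene with a median of at least 0.5 CPM lies to the left of them.

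SIRT3, which encodes the mitochondrial deacetylase sirtuin 3, ends 0.345 kb from RIC8A and had 20, 7 and 20 counts, 30.6% of its median and below every other line (log2 fold change -1.58, adjusted p = 5.34e-08). PSMD13, a proteasome subunit gene whose start overlaps that of SIRT3, had 2372 counts or 96.5% (-0.02, adjusted p = 0.912). Beyond these, PGGHG stood at 73.8% (-0.25, adjusted p = 0.279). Of 46 protein-coding neighbours within 1 Mb, 17 were not tested. Of the 29 tested neighbours 4 were called lower (BET1L, SIRT3, SIGIRR and PTDSS2) and 12 higher, and 13.7% and 15.9% of all genes were. The neighbours had a median log2 fold change of 0.59, against -0.04 for all genes. PTDSS2 lost its call without replicate 1 (-0.87). The right flank 1 to 5 Mb away had a median of -0.59 over 34 genes, 6 called lower and 6 higher.

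A separate gap in MDA-MB-157, on chromosome 15, took 1 of the 10 genes. ANP32A (ENSG00000140350.15, chr15:68778535-68820897, minus strand) had 1, 0 and 0 counts in MDA-MB-157. Elsewhere it held 53.6 to 335 CPM with a median of 127, so the groups do not overlap, and the ratio to the median line was 1859-fold lower (interval 334 to 73429.8). SPESP1, a sperm protein gene on the opposite strand, had 0 counts and was at least 6.15-fold lower (adjusted p = 3.11e-10). SPESP1 is low elsewhere too: 8 of the other 14 lines held 0.226 to 1.26 CPM of it, and the other 6 held 13.3 to 59.1. In GENCODE 29 the 2 start sites are 2676 bases apart and the gene bodies overlap between them. The RefSeq table instead has the promoter of SPESP1 at chr15:68930275-68930524, just before the GENCODE start of NOX5, which is 110 kb from ANP32A. Whether the counting used strand is not given in the sources used here, so reads of the overlap cannot be assigned. The next genes on both sides kept their reads: CORO2B stood at 106% of its median and NOX5 at 189%. GLCE, a heparan sulfate epimerase gene, was at 78.6% with 676 counts (log2 fold change -0.60, adjusted p = 2.59e-05). Of 14 tested neighbours 3 were called lower and 1 higher, and 12.4% and 20.0% of all genes in this line were. The median log2 fold change of the neighbours was -0.08, and that of all genes 0.07. The one called higher was the integrin gene ITGA11, 346 kb to the left, with 31.2 CPM where the median was 1.07 (log2 fold change 4.38 ± 0.22 SE, adjusted p = 3.09e-22), and FEM1B beside it stood at 109%. The 3 were SPESP1, CLN6 (log2 fold change -1.05) and PAQR5 (-1.14), and CLN6 lost its call without replicate 3 (-0.99). The flanks 1 to 5 Mb away had medians of 0.03 over 41 genes on the left and -0.04 over 19 on the right.

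**Figure D2:**
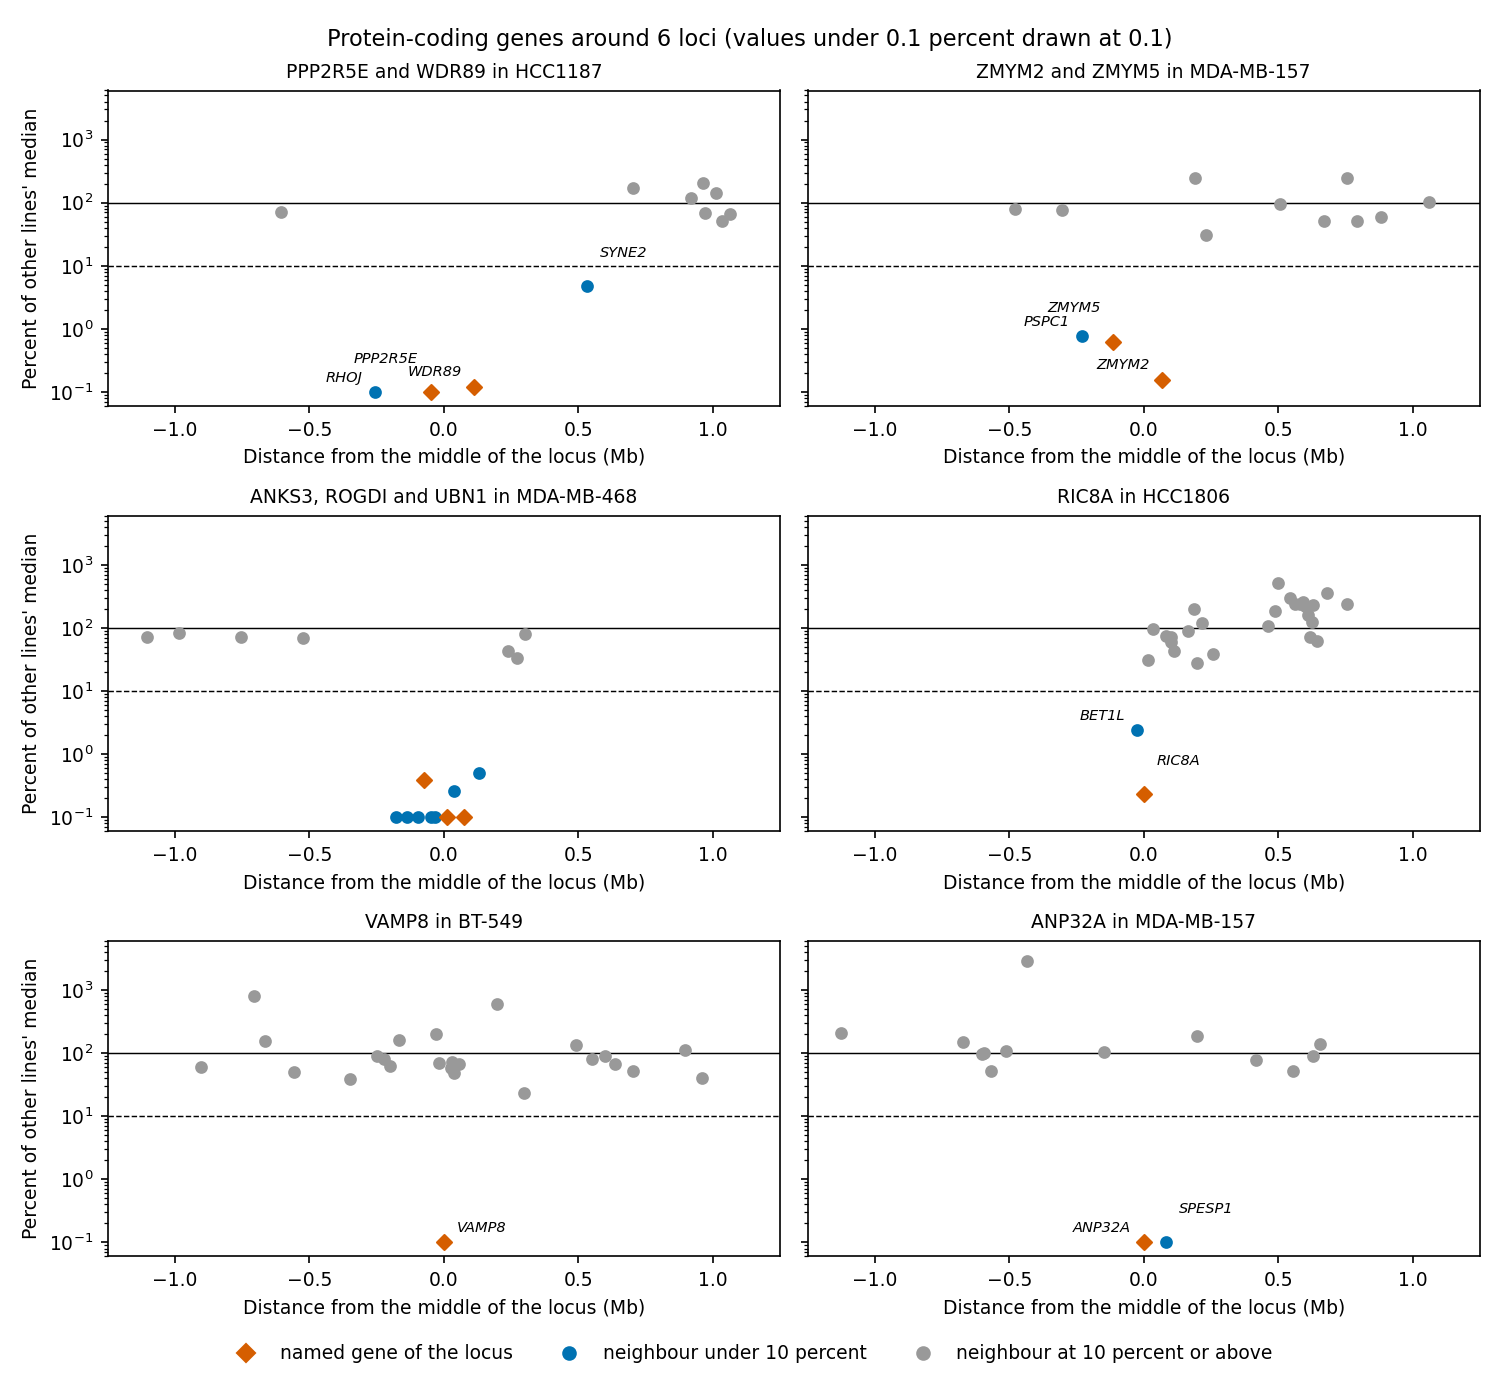
Level of each protein-coding gene with a median of at least 0.5 CPM, as percent of the median of the other 14 lines (log axis), against its distance from the middle of the locus in Mb. The solid line is 100 percent, the dashed line 10 percent. The genes under 10 percent form a block in MDA-MB-468 and groups of fewer genes in HCC1187, MDA-MB-157 on chromosome 13 and HCC1806, while VAMP8 stands alone.

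VAMP8 (ENSG00000118640.10, chr2:85561562-85582031, plus strand) goes against the description of a gene missing from 1 line. BT-549 was lowest with 0, 1 and 0 counts, but Hs578T had 2, 1 and 3, MDA-MB-436 2, 3 and 5, and HCC1395 10, 6 and 11. Their means were 0.402 ± 0.15 CPM in Hs578T, 0.527 ± 0.21 in MDA-MB-436 and 1.12 ± 0.45 in HCC1395 (SD, n = 3). MDA-MB-157 came next at 14.8 ± 0.43 CPM. The other 10 lines lay between 34.6 ± 1.2 CPM in HCC1806 and 205 ± 31 CPM in MDA-MB-453 (SD, n = 3). BT-549 was 1841-fold below the median line of 83.3 CPM (interval 330 to 72724).

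The nearest tested genes on either side of VAMP8 were read in all 4 lines. GGCX, the vitamin K-dependent carboxylase gene, had 894 counts in BT-549 or 69.4% of its median, with a log2 fold change of -0.56 (adjusted p = 6.10e-05) that is short of a call. Its mean was 77.2 ± 2.1 CPM in Hs578T, 50.8 ± 2.4 in MDA-MB-436 and 53.2 ± 4.7 in HCC1395 (SD, n = 3). RNF181, a ubiquitin ligase gene 13.7 kb to the right, had 433 counts in BT-549 or 58.5% (-0.76, adjusted p = 1.55e-05). It held 50.7 ± 6.5 CPM in Hs578T, 51.5 ± 6.8 in MDA-MB-436 and 48.0 ± 8.6 in HCC1395 (SD, n = 3). Of 29 protein-coding neighbours within 1 Mb, 5 were not tested. VAMP5, of the same family and not tested, had 0 CPM in BT-549 from a median of 0.221 CPM. No tested neighbour within 1 Mb was under 10% of its median, a share that 2.57% of all genes in BT-549 had. Of 24 tested, 4 were called lower (KCMF1, C2orf68, ST3GAL5 and CHMP3, log2 fold changes -1.03 to -1.39) and 3 higher, and 10.7% and 13.3% of all genes were. The median of the neighbours was -0.35, and that of all genes 0.08. C2orf68 lost its call without replicate 2 (-0.95). Of the nearest neighbours, CAPG was called higher (log2 fold change 1.81), while MAT2A (0.97), TMEM150A (-0.19) and USP39 (-0.38) were not called. The flanks 1 to 5 Mb away had medians of -0.65 over 2 genes on the left and -1.38 over 11 on the right, 4 of the 11 called lower.

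The 4 lines near 0 for VAMP8 were also low in epithelial markers. In them, between 0 and 3 of the 8 epithelial markers reached 5 CPM, and their summed level was 11.4 CPM in BT-549, 155 in Hs578T, 181 in MDA-MB-436 and 263 in HCC1395. MDA-MB-157, with 3 of 8 markers and 377 CPM, had the next lowest VAMP8. In MDA-MB-231, with 5 of 8 and 1361 CPM, VAMP8 was at 148 ± 7.3 CPM (SD, n = 3), with HCC70 and MDA-MB-453 above it. HCC1806 and HCC1187, with all 8 markers and sums of 5005 and 4317 CPM, had less VAMP8 than MDA-MB-231, at 34.6 ± 1.2 and 58.3 ± 1.6 CPM (SD, n = 3). The part of these markers in the result was not tested.

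**Figure D3:**
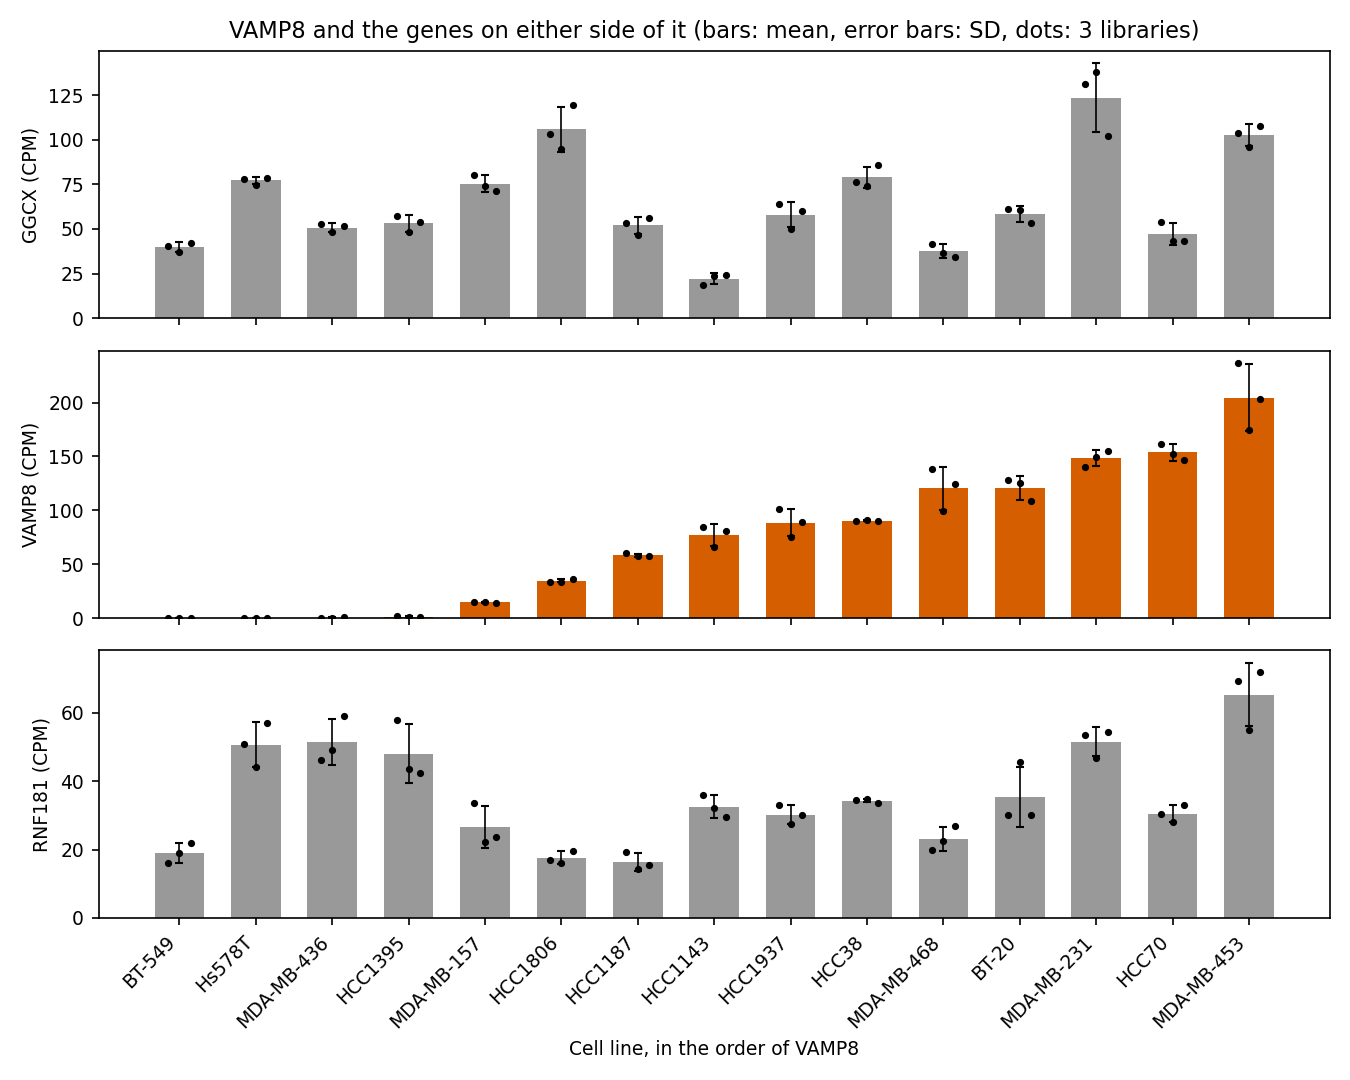
Mean CPM of GGCX, VAMP8 and RNF181 in 15 lines ordered by VAMP8. Bars are means, error bars SD and dots the 3 libraries. VAMP8 is near 0 in the first 4 lines, where GGCX and RNF181 keep their reads. BT-549 has 69.4% of the median of GGCX and 58.5% of that of RNF181.

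The rule asked only that the other lines express a gene, so differences among them could be tested. All 10 genes differed among their other 14 lines (edgeR quasi-likelihood test on 13 degrees of freedom, adjusted p from 1.59e-37 for VAMP8 to 5.48e-11 for PPP2R5E). Of all genes, 97.8% to 98.2% did, depending on the line left out (98.0% without HCC1187), so the count says little about these 10.

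The spread among these lines is given as a description, since the choice of genes that the other lines express left out genes that are low in some of them, while all tested genes include such genes. UBN1 had a standard deviation of 0.43 in log2 CPM over line means, and 4.29% of genes had a smaller one. PPP2R5E (0.46), WDR89 (0.48), ANKS3 (0.50), RIC8A (0.57) and ZMYM5 (0.59) were also under the median of all genes, 0.77 to 0.79. ANP32A (0.73) and ZMYM2 (0.76) were close to it. ROGDI (1.26) was above it and VAMP8 (2.98) wider than 99.1% of genes.

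PP2A subunit gene PPP2R5E ran from 49.9 ± 7.3 CPM in HCC1806 to 112 ± 4.5 in BT-20 (SD, n = 3). In the order of its 14 line means, 11 of 13 neighbouring pairs differed by less than the larger of the 2 SDs. WDR89 ran from 31.7 ± 1.4 CPM in BT-20 to 91.8 ± 2.0 in MDA-MB-453, with 7 such pairs of 13. Of the 2 genes missing together in HCC1187, BT-20 thus had the highest mean of one and the lowest of the other. In neither did BT-20 differ from the next line, MDA-MB-468, beyond the larger SD. MDA-MB-468 had 107 ± 38 CPM of PPP2R5E and 33.2 ± 3.7 of WDR89 (SD, n = 3).

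ZMYM2 was highest in HCC1187 at 351 ± 28 CPM, then BT-20 at 313 ± 15 and MDA-MB-453 at 257 ± 16, and lowest in HCC1806 at 71.2 ± 6.0 (SD, n = 3). HCC1806, Hs578T and MDA-MB-231 at the low end did not differ beyond their spread. ZMYM5 was also lowest in HCC1806, at 12.7 ± 1.4 CPM, and highest in BT-20, at 63.5 ± 4.6. For ZMYM5 10 of 13 neighbouring pairs were within the larger SD, and for ZMYM2 6.

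ANKS3 was highest in MDA-MB-157 at 32.9 ± 3.9 CPM and lowest in HCC1395 at 9.08 ± 1.5, with 11 of 13 pairs within the larger SD (SD, n = 3). UBN1 was highest in MDA-MB-157 too, at 184 ± 2.2 CPM, above MDA-MB-436 at 146 ± 3.9, and HCC1806 and Hs578T at the low end, with 63.8 ± 5.0 and 64.2 ± 11, did not differ beyond their spread. ROGDI stood out in MDA-MB-453 at 106 ± 7.4 CPM, while the next line, HCC1143, had 37.4 ± 4.4. At the other end MDA-MB-231 had 3.29 ± 0.96 CPM of ROGDI, the only other line under 5 CPM of it.

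RIC8A was highest in MDA-MB-231 at 166 ± 18 CPM and lowest in HCC70 at 36.3 ± 0.59, with 5 of 13 pairs within the larger SD (SD, n = 3). ANP32A was highest in MDA-MB-453 at 323 ± 19 CPM, above BT-20 at 225 ± 16, and MDA-MB-436 and MDA-MB-231 at the low end, with 65.1 ± 11 and 66.3 ± 5.3, did not differ beyond their spread.

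None of the 10 genes passed the test between lines kept in L-15 and in RPMI 1640 (edgeR on counts summed per line, with the line lacking the gene left out). None had an unadjusted p under 0.05 and DESeq2 called none. Over all genes edgeR called 0.0%, with 1901 to 2811 genes at an unadjusted p under 0.05 and 295 to 891 called by DESeq2, depending on the line left out. The difference nearest to the threshold was RIC8A, 0.58 ± 0.30 log2 units higher in L-15 (SE, unadjusted p = 0.0733, adjusted p = 0.527, 5 against 7 lines). The medium goes with the origin of the lines, and these cannot be told apart.

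The genes most like the 10 across the other lines are given as a description, over 14 line means of log2 CPM that share library and depth. For each of the 10, the 2 highest of 20584 genes compared are named. With so many genes and 14 points, high values can come from the search alone, and none was tested. ROGDI was most like ABCC5, a drug efflux pump gene (Pearson r = 0.94), and LIMK2 (0.90). ZMYM5 was most like its near neighbour MPHOSPH8 (0.93), which lies on the far side of PSPC1, and PPM1H (0.92). VAMP8 was most like the tight junction gene CLDN4 (0.92) and the protease inhibitor gene SPINT2 (0.92). ANP32A was most like IRF2BPL (0.91) and COQ6 (0.88), PPP2R5E like PIK3R3 (0.88) and ALAD (0.85), ZMYM2 like NPB (0.87) and FLAD1 (0.83). For RIC8A the closest were the noncoding genes PCAT4 (0.92) and LINC02466 (0.91). The highest values for WDR89 (AC018521.4 and FBXO45), ANKS3 (UNC5C and HHIPL2) and UBN1 (LINC01569 and TARBP1) were 0.81 to 0.83.

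For 8 of the 10 genes a list of relatives and complex partners was drawn up, 100 genes in all. Of 96 tested, 13 were called in the line that lacks the gene, 6 higher and 7 lower. Called in either direction were 28.9% of all genes in HCC1187, 32.4% in MDA-MB-157, 23.9% in MDA-MB-468, 29.6% in HCC1806 and 24.0% in BT-549.

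Of 21 PP2A genes in HCC1187, 2 were called. PPP2R2A, a B55 regulatory subunit gene, was higher (119 CPM, median of the other lines 51.3, log2 fold change 1.37 ± 0.11 SE), and its relative PPP2R2C lower (-2.92 ± 0.52). None of the 4 other B56 genes was called: PPP2R5A had a log2 fold change of -0.13, PPP2R5B 0.60, PPP2R5C 0.33 and PPP2R5D -0.51. The list had a median of 0.00 and all genes of 0.03.

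In MDA-MB-157, 2 of 16 genes of the LSD1-CoREST complex and the MYM-type family were called. ZMYM3, a close relative of ZMYM2, was higher at 67.2 CPM, with a median of 19.1 in the other lines (log2 fold change 1.46 ± 0.10 SE). GSE1, a CoREST partner gene, was lower (4.49 CPM, median 24.9, -2.63 ± 0.23 SE). The list had a median of 0.00 and all genes of 0.07.

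The same line lacks ANP32A, and 2 of 7 tested genes of that family and its SET complex were lower. ANP32E, which removes the histone variant H2A.Z, had a log2 fold change of -1.78 ± 0.21 (62.1 CPM, median 176), and SET one of -1.43 ± 0.13 (864 CPM, median 1965). ANP32B, the other paralog, stood at 0.00 ± 0.16. The median of the list was -0.58 and its highest value that of ANP32B.

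In MDA-MB-468, 0 of 8 tested genes of the HIRA complex and H3.3 chaperones were called, with a median log2 fold change of 0.51 where all genes had 0.03. UBN2, the paralog of UBN1, was among them with 0.58 ± 0.12 (SE). Their values ran from 0.00 to 0.89. Of 11 genes of the vacuolar pump's V1 sector and the rabconnectins, 1 was called: DMXL1, a rabconnectin gene, at 1.01 ± 0.10 (SE). That call was at the edge, and it was lost without replicate 1 (0.91) and without replicate 2 (0.99). None of 7 genes of the ANKS6 module was called, and ANKS6 itself had 0.93.

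In HCC1806, 5 of 13 genes on the list of G protein alpha subunits and RIC8B were called, where 29.6% of all genes were. GNA15 was higher by 6.38 ± 0.16 log2 units (39.7 CPM, median 0.304), GNA13 by 2.56 ± 0.09 (435 CPM, median 78.3) and GNAQ by 1.37 ± 0.10 (SE). GNAL (-2.07 ± 0.25) and GNAO1 (-2.32 ± 0.58) were lower, the latter from a median of 1.52 CPM. RIC8B, the paralog of RIC8A, had 0.46 ± 0.10 (SE) and was not called. The list had a median of 0.28 and all genes of -0.04.

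In BT-549, 1 of 13 tested SNARE genes was called. STX3, an apical syntaxin gene, was lower, with a log2 fold change of -1.19 ± 0.12 (SE). VAMP3, a relative that also acts at endosomes, had a log2 fold change of 0.67 ± 0.10 (SE) and was not called. The list had a median of 0.08, as had all genes.

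**Figure D4:**
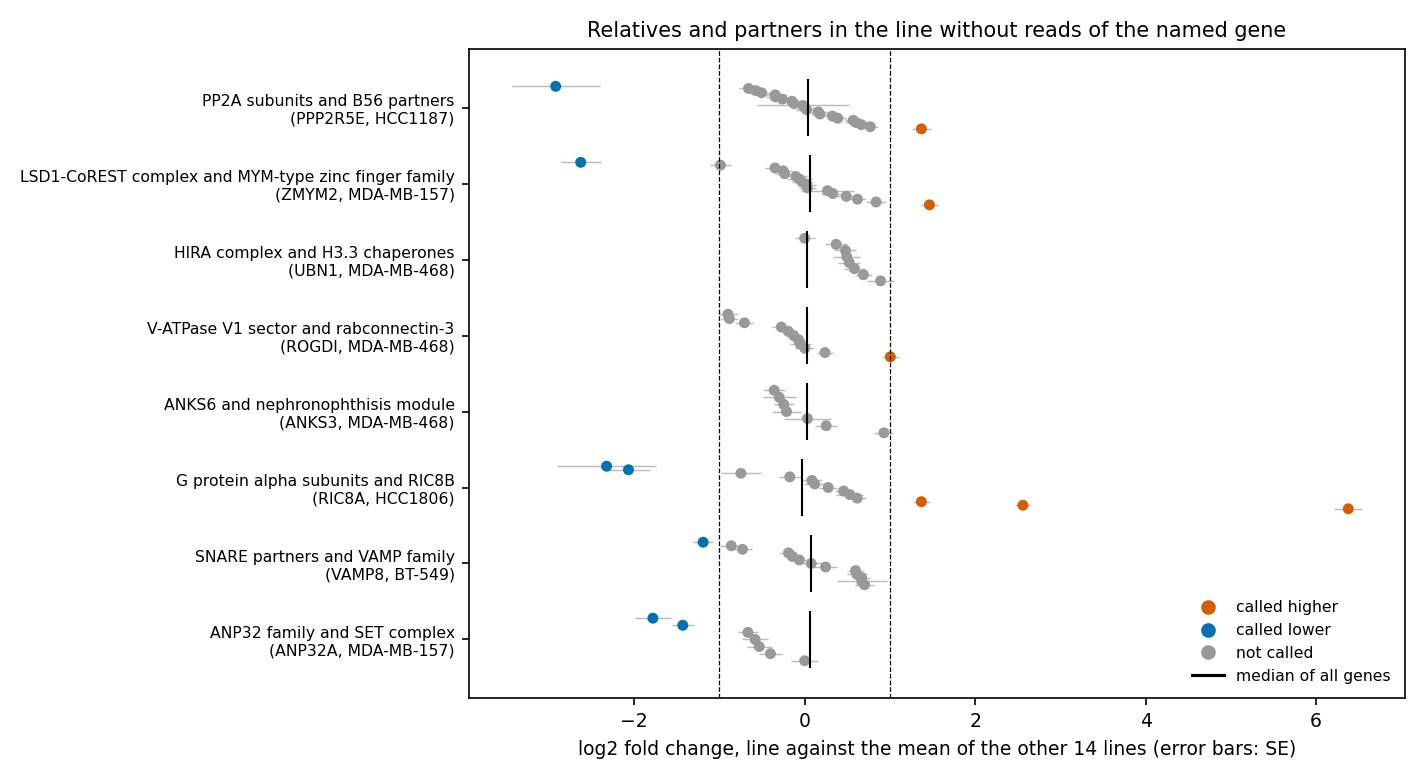
log2 fold change of each tested partner gene in the line that lacks the named gene against the mean of the other 14 lines, with SE as error bars. Orange points were called higher, blue lower, grey neither, and black bars mark the median of all genes. GNA15 in HCC1806 lies farthest from 0 at 6.38.

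The 10 genes are a small part of all genes missing from a line. Applied to the whole table, a definition of under 0.5 CPM in 1 line, at least 1 CPM in each other line and a median of at least 5 CPM gave 262 genes, 2.54% of the 10314 with such a median. Of the 10 genes here 9 met it and VAMP8 did not. Ordered along the chromosomes among genes expressed at that level, 32 of the 260 genes with a known position stood in 12 runs of 2 or more in the same line, and 228 stood alone. Runs held 8 of the 9 genes: PPP2R5E with WDR89, ZMYM5 with ZMYM2, BET1L with RIC8A, and ANKS3, ROGDI and UBN1 in the longest run, 7 genes from MGRN1 to UBN1. ANP32A was in none. The runs of PPP2R5E with WDR89 and of ZMYM5 with ZMYM2 hold chosen genes only. The choice thus fixed much of the count of 8, which is no result about the 9 genes. By line, 9 of 12 such genes in MDA-MB-468 were in runs, 6 of 15 in HCC1806, 5 of 22 in HCC1187 and 2 of 12 in MDA-MB-157. None of 60 in HCC70 or 42 in HCC1395 was.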

How the data were processed

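Per the labels' protocols, total RNA of 45 samples was depleted of ribosomal RNA and made into libraries with the ScriptSeq v2 kit. Per the submitters' processing notes, bcl2fastq 2.20.0.422, FastQC, MultiQC, Trimmomatic, STAR, featureCounts and GRCh38.p12 were used, with settings not given in the sources used here. Raw counts per gene were what the authors deposited. Of 64485 genes, 58261 (90.3%) matched GENCODE 29 by ID and took positions from it.

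The 10 genes, the neighbour rule and the partner lists were chosen with earlier results of these data known. edgeR 4.0.16 (R 4.3.3) was fitted to all 45 libraries with 1 mean per line, filterByExpr (20587 genes kept), TMM scaling and the quasi-likelihood test, as the line with the lowest level against the mean of the other 14. A call needs a Benjamini-Hochberg adjusted p under 0.05 and a log2 fold change of 1 or more in size. SEs were derived from the fold change and F. The common coefficient of biological variation was 0.153. DESeq2 1.42.0 was an alternative, with RLE scaling, no filter, blocks for replicate number or run, the 11 lines of the same runs, replicates left out and other windows. The fit was also run on simulated data in which only some genes differed, in 1 line, with 1 dispersion for all genes. That setting is simpler than these data, and no result here rests on it. Levels are CPM of summed or single libraries, without TMM. The limits of 0.5 CPM and 10% that mark a missing gene were set after the data were seen. Intervals are exact Poisson at 95%, and a count of 0 was set at 3 counts over the line's libraries.

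Named are the 10 genes, the 3 nearest tested neighbours a side, neighbours called lower, up to 3 called genes a partner list with the direct paralogs, and the 2 genes most like each of the 10. Other names (the flanking, overlapping and noncoding genes of each gap) were chosen after their values were seen. In 11 lines replicate number and run coincide (runs 3 to 5). Deviations from the line mean had a median correlation of 0.056 for 165 pairs of the same number and -0.030 for 330 others. Over 0.1 were 55 of the 165 and 34 of the 330. As not every pair was over 0.1, the numbers were not treated as pairs. Blocks for number and run were fitted as alternatives only.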

Additional observations from a re-analysis of the deposited data

Results flagged for a closer look

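Within a medium, 4 of 20 groups of line means had 1 line far from the rest by Dixon's test, where chance flags about 1 in 20. The line lowest in a gene was left out of that gene's groups. ZMYM5 in MDA-MB-453 was high among 4 L-15 lines, with a log2 CPM of 5.389 where the nearest other line had 4.723. ZMYM5 in HCC1806 was low among 8 RPMI 1640 lines, at 3.861 where the nearest had 4.909. VAMP8 in HCC1395 was low among the 7 RPMI 1640 lines other than BT-549, at 0.4736 where the nearest had 5.296. BT-549, left out of this group, was lower still, with a mean of 0.056 CPM where HCC1395 had 1.12. ANP32A in MDA-MB-453 was high among 4 L-15 lines, at 8.206 where the nearest had 6.234. No cause was tested.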

How the results depend on the processing

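The counts of neighbours called lower moved mainly with the window. Around PPP2R5E and WDR89 the count of 2 became 6 within 2 Mb, 7 over the 10 nearest tested genes on each side and 1 over the lines of the same runs, and ran from 1 to 2 with a replicate left out. Around ZMYM2 and ZMYM5 the count of 6 became 11, and around ANKS3, ROGDI and UBN1 the count of 9 became 15, both within 2 Mb. Around VAMP8 the count of 4 became 2 within 0.5 Mb. The causes were not tested beyond the change of window. Genes missing from a single line numbered 110 with a limit of 0.25 CPM, 639 with 1 CPM and 727 with no minimum in the other lines, against 262. With the replicate block the 6 neighbour counts were 2, 6, 9, 4, 4 and 3 and the partner count 13, as without it, and the block changed no other call among those results. Of 671 values of 77 named genes under the alternatives, 640 stayed on the same side of the threshold, 22 lost the call, 9 gained it and none reversed. MAT2A beside VAMP8 gained a call without replicate 1 (1.001) and without replicate 2 (1.02), RNF181 without replicate 3 (-1.004), and NOX5 beside ANP32A under 5 alternatives (1.02 to 1.32). Depth limits the genes at 0 counts with medians under 1 CPM, whose bounds are under 4-fold.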
